A study of Mus musculus with 3 samples.

Results

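The genes described here set the pace of the G1 phase of the cell cycle: the D-type cyclins Ccnd1, Ccnd2 and Ccnd3, the E-type cyclins Ccne1 and Ccne2, the kinase Cdk6, the CIP/KIP inhibitors Cdkn1a (p21) and Cdkn1b (p27), and the INK4 inhibitors Cdkn2a (p16 and p19Arf) and Cdkn2b (p15). They were picked by name, through the gene symbol of each array probe or through its accession, and 18 probes for these 10 genes were found among 41174 probes in all. RNA of mouse embryonic stem (ES) cells was hybridised to 3 Agilent 1-colour arrays, 1 array per sample. The 2 knockout samples, KO 4 and KO 22, are labelled as lacking Tet1, a dioxygenase that converts methylated cytosine to its hydroxymethyl form, and the single wild type sample (WT) is labelled Tet1 WT. All 3 samples carry the labels V6.5 and a mixed 129 and C57BL6 strain. They shared a culture on irradiated feeder cells in medium containing LIF, and were preplated before RNA was extracted. The labels do not say whether KO 4 and KO 22 are separate lines, clones or cultures. The spread behind each p-value is thus that between KO 4 and KO 22 alone and may be technical, and the wild type has no replicate.

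D-type cyclins join the kinases Cdk4 and Cdk6, and E-type cyclins join Cdk2. Both complexes phosphorylate the retinoblastoma proteins, which frees E2F transcription factors to switch on the genes of DNA replication. INK4 inhibitors bind Cdk4 and Cdk6, and CIP/KIP inhibitors bind cyclin and kinase complexes, chiefly those of Cdk2. ES cells are known for a short G1 phase, with abundant cyclin E and little INK4 inhibitor.

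The proximal promoters of the members that stood farthest from wild type in either direction, Ccne1 below it and Cdkn2b above it, are shown first, with both start sites of Cdkn2a, whose single probe cannot tell its transcripts apart. Each line gives the 250 bases before an annotated start from RefSeq on build GRCm38.p6, 5′ to 3′ on the strand of the gene, and capitals mark an E2F word (TTTGGCGC, TTTCCCGC or TTTCGCGC on either strand) or an E-box (CACGTG).
Ccne1, chr7:38107491-38107740, minus strand: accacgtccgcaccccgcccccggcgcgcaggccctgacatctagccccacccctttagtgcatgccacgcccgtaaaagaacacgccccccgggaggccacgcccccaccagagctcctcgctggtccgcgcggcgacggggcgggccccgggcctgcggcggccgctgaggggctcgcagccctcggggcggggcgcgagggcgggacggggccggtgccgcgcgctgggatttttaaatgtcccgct
Cdkn2b, chr4:89311033-89311282, minus strand: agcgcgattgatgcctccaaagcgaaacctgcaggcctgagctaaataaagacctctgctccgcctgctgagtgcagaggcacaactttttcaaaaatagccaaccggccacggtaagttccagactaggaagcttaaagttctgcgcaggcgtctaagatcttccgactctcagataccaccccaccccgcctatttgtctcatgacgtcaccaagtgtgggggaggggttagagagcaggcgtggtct
Cdkn2a, upstream start, chr4:89294620-89294869, minus strand: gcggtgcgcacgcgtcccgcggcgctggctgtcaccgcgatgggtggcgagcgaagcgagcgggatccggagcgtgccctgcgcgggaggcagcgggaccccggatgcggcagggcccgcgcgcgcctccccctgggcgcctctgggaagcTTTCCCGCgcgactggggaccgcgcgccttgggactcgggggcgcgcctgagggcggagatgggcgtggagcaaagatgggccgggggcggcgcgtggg
Cdkn2a, downstream start, chr4:89282193-89282442, minus strand: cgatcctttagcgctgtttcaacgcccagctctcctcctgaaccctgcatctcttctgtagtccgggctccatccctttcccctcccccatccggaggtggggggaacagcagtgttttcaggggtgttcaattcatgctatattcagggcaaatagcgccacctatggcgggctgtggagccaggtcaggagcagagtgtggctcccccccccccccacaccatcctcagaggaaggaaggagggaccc
The upstream start of Cdkn2a is the start of the p19Arf transcript and the downstream one that of p16, as background. The upstream window held 40 CpG dinucleotides and the downstream window 7, against 34 in that of Ccne1, 12 in that of Cdkn2b and a median of 6 over all 32851 windows. One E2F word, TTTCCCGC, lay 99 to 92 bases before the upstream start of Cdkn2a, and any of the 3 E2F words was found in 1.53% of all windows. These letters were not in the windows of Ccne1 and Cdkn2b. RefSeq windows were matched for 7 of the 10 genes, 10 windows in all. Elsewhere among them, an E-box lay 220 to 215 bases before the start of Cdk6, a word found in 6.02% of all windows, and words of the p53 motif, GGACTAGCTT and GAACATGTCT, lay 73 to 64 and 51 to 42 bases before a start of Cdkn1a, a motif found in 7.13%. Searches covered both strands, and the words found in the 10 windows did not overlap each other. A match is a description of the letters and not a binding site.

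Levels are given as relative intensity, the processed intensity of a probe divided by the 75th percentile of all non-control spots on its array, so that a value of 1 equals that percentile. They are comparable between arrays for 1 probe and not between probes. Differences are on the log2 scale, knockout minus wild type, as mean ± SE from limma with n = 2 against 1, and the threshold is an adjusted p of 0.05. The 75th percentile was an intensity of 718 on KO 4, 645 on KO 22 and 624 on WT, with 62.2% to 62.8% of spots well above background. The probe of Tet1 had relative intensities of 0.298, 0.303 and 1.16 on KO 4, KO 22 and WT, a difference of -1.94 ± 0.09 (limma adjusted p = 0.0475). Its adjusted p ran from 1.5e-07 to 0.176 over the alternatives, with 0.0529 where each gene had 1 probe, and whether it lies in the deleted part of the gene is unknown here. Of the ES cell markers, 11 of 12 were measured, with knockout values below wild type on both arrays for 7 and above it for 3. Over all genes those shares were 45.5% and 38.0%. The pluripotency factor genes Pou5f1 and Klf4 lay on opposite sides of wild type, at 29.5, 29.4 and 40.7 for Pou5f1 and 101, 100.3 and 76.0 for Klf4. In these bulk samples fewer cells of a type and less RNA per cell cannot be told apart.

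None of the 17 member probes tested passed the threshold in limma, with adjusted p-values from 0.094 to 0.647. Over all 26526 probes tested limma called 14 higher and 74 lower, or 0.0528% and 0.279%. That split became 31 higher and 87 lower with scaling to the median, and 1164 and 452 with no scaling. At an unadjusted p below 0.05 limma had 4 member probes higher, for Ccne2, Cdkn2b and Cdk6, and 2 lower, both for Ccne1, against 14.1% and 13.8% of all probes. No member probe lay at least 2-fold from wild type on both knockout arrays, a distance reached by 1.48% of all probes on the higher side and 1.35% on the lower side. Both knockout arrays lay below wild type for 11 of the 17 probes and above it for 6, against 43.6% and 39.9% of all probes. With no scaling these became 7 below and 6 above, against 25.1% and 53.1%, and the median of all probes moved by 0.13. The median size of the difference, regardless of sign, was 0.32 over the member probes and 0.22 over all probes. These figures count probes and not the 10 genes, so genes with several probes weigh more. The 5 member probes with a difference of at least 0.5 in size all came from Ccnd2 and Ccne1, against 16.9% of all probes at that size.

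**Figure D1:**
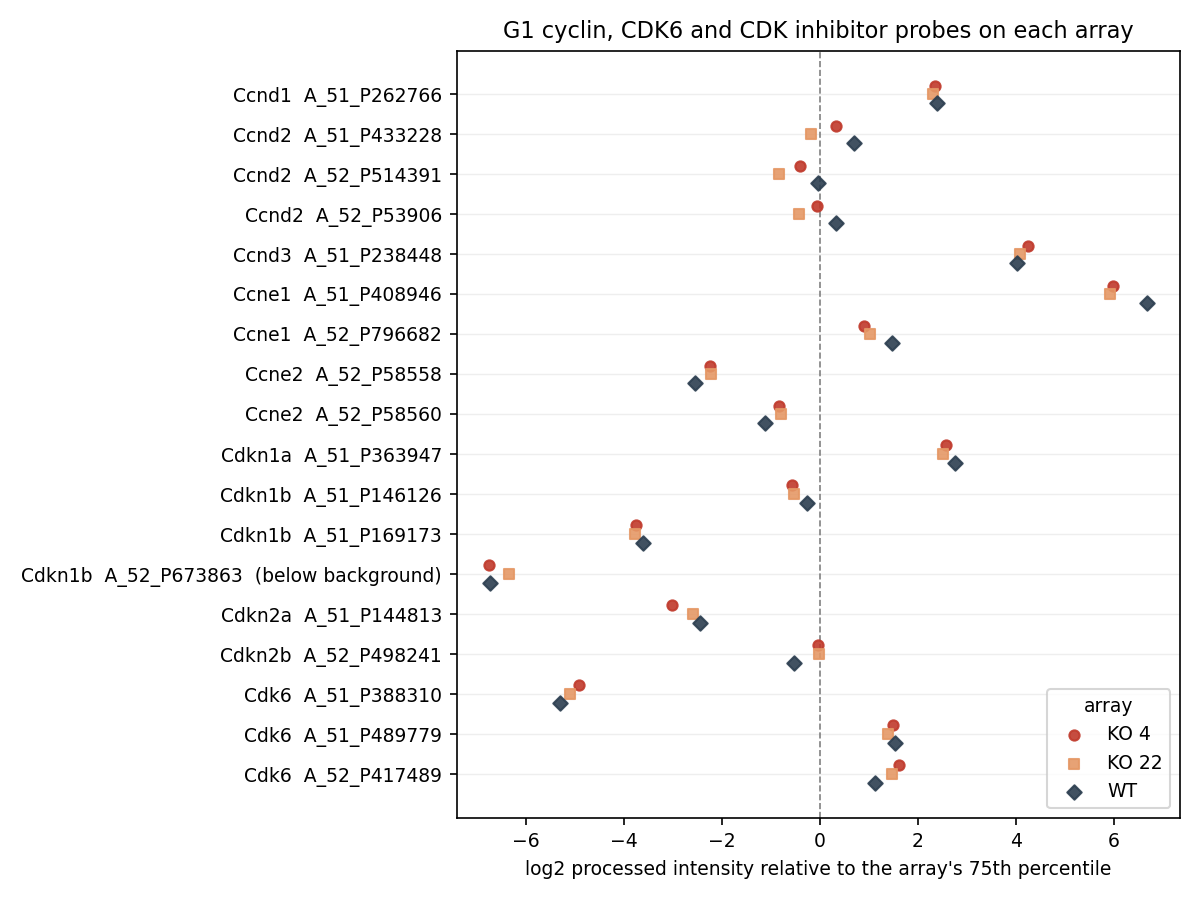
Log2 processed intensity of each of the 18 member probes relative to the 75th percentile of its array (x axis), with KO 4 as circles, KO 22 as squares and wild type as diamonds. The wild type diamond lies to the right of both knockout symbols for Ccne1 and Ccnd2 and to the left for Ccne2 and Cdkn2b; positions of different probes on the axis are not comparable with each other.

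Among the D-type cyclins, Ccnd2 was lower on both knockout arrays by all 3 of its probes, while Ccnd1 and Ccnd3 lay closer to wild type. On build mm7 the Ccnd2 probes lie on chromosome 6 at 127154070 to 127154129, 127163669 to 127163728 and 127173178 to 127173237, and the file ties each to the Ccnd2 mRNA. No gene annotation of that build was used here, so exon and UTR positions are not given. Probe A_51_P433228 had relative intensities of 1.26 on KO 4, 0.881 on KO 22 and 1.62 on WT. For A_52_P53906 they were 0.962, 0.746 and 1.25, and for A_52_P514391 0.752, 0.559 and 0.975. KO 22 was the lowest and wild type the highest on each of the 3 probes. The differences were -0.62 ± 0.27, -0.56 ± 0.20 and -0.59 ± 0.23 (limma adjusted p = 0.245, 0.198 and 0.216). Much of this came from KO 22: the differences of KO 4 alone ran from -0.36 to -0.38 and those of KO 22 alone from -0.74 to -0.88. KO 4 stood above KO 22 by 0.37 to 0.52, where the SD of that difference over all probes was 0.32. These probes share a transcript and are not independent of each other.

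Ccnd1, the cyclin D induced by mitogens and Wnt signals, was measured by A_51_P262766 in 10 repeated spots per array (chr7_random from 7568179 to 7568238, build mm7). The mean relative intensity over those spots was 5.07 ± 0.14 on KO 4, 4.94 ± 0.22 on KO 22 and 5.27 ± 0.19 on WT (SD, n = 10 spots of 1 array). The ranges of the spots overlapped among all 3 arrays. Its difference was -0.07 ± 0.10, with a 95% interval from -0.36 to 0.22 (limma adjusted p = 0.647), and it turned to 0.052 with no scaling. Ccnd3, read by A_51_P238448 (chromosome 17, 45735858 to 45735917, mm7), had relative intensities of 18.8, 16.8 and 16.2 on KO 4, KO 22 and WT. KO 22 lay nearer to wild type than to KO 4, and the difference was 0.14 ± 0.12, with an interval from -0.24 to 0.51 (limma adjusted p = 0.51). These intervals do not reach a change of 2-fold.

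The mean differences of the E-type cyclins lay on opposite sides of wild type, with no probe past the threshold. Ccne1 was lower on both knockout arrays by both of its probes, and Ccne2 was higher by both of its probes. Both Ccne1 probes carry the same mm7 position, chromosome 7 from 34990690 to 34990713, a span of only 24 bases. For Ccne1 and for Ccne2, both probes read the same gene and are not independent of each other. Probe A_51_P408946 had relative intensities of 62.8 on KO 4, 60.5 on KO 22 and 102 on WT, and A_52_P796682 had 1.87, 2.04 and 2.78. On each probe the knockout arrays lay close together and below wild type. The differences were -0.72 ± 0.10 and -0.51 ± 0.11, a wild type level 1.65 and 1.42 times that of the knockouts (limma adjusted p = 0.094 and 0.123). The first probe passed where limma tested only probes well above background on all 3 arrays (adjusted p = 0.037), a test that called 4.34% of its probes higher and 3.05% lower. It also passed with the values of the deposited series matrix (limma adjusted p = 0.034). Its adjusted p ranged from 0.00164 to 0.33 over the alternatives.

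Ccne2 was read by A_52_P58560 and A_52_P58558 (chromosome 4, 11130171 to 11130230 and 11130287 to 11130346, mm7). Relative intensities on KO 4, KO 22 and WT were 0.557, 0.578 and 0.46 for the first, and 0.211, 0.214 and 0.17 for the second. Again the knockout arrays lay together, here above wild type. The differences were 0.30 ± 0.10 and 0.32 ± 0.09, or 1.23-fold and 1.25-fold (limma adjusted p = 0.176 and 0.158). Neither probe passed under any of the alternatives run.

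Cdk6, one of the kinases of the D-type cyclins, gave different values by probe. A_52_P417489 (chromosome 5, 3479226 to 3521510 on mm7, a span of 42285 bases for the ends of 1 probe) had relative intensities of 3.08, 2.77 and 2.17 on KO 4, KO 22 and WT. Its difference was 0.43 ± 0.12 with an interval from 0.07 to 0.79 (limma adjusted p = 0.151). A_51_P489779, designed to a thymus cDNA that the file names Cdk6 and describes as unclassifiable, lying farther along the chromosome at 3535293 to 3535352, had 2.80, 2.62 and 2.90. That is a difference of -0.09 ± 0.10 with an interval from -0.41 to 0.22 (limma adjusted p = 0.59), which turned to 0.031 with no scaling. Another, dim probe, A_51_P388310 at 3527675 to 3527734, had 0.033, 0.0292 and 0.0252, a difference of 0.30 ± 0.13 (limma adjusted p = 0.24), which shrank to 0.024 with normexp background correction. Of the probes tied to the Cdk6 mRNA, the higher value thus rests on A_52_P417489. The gap between probes was not tested, and which transcripts each one reads was not tested.

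**Figure D2:**
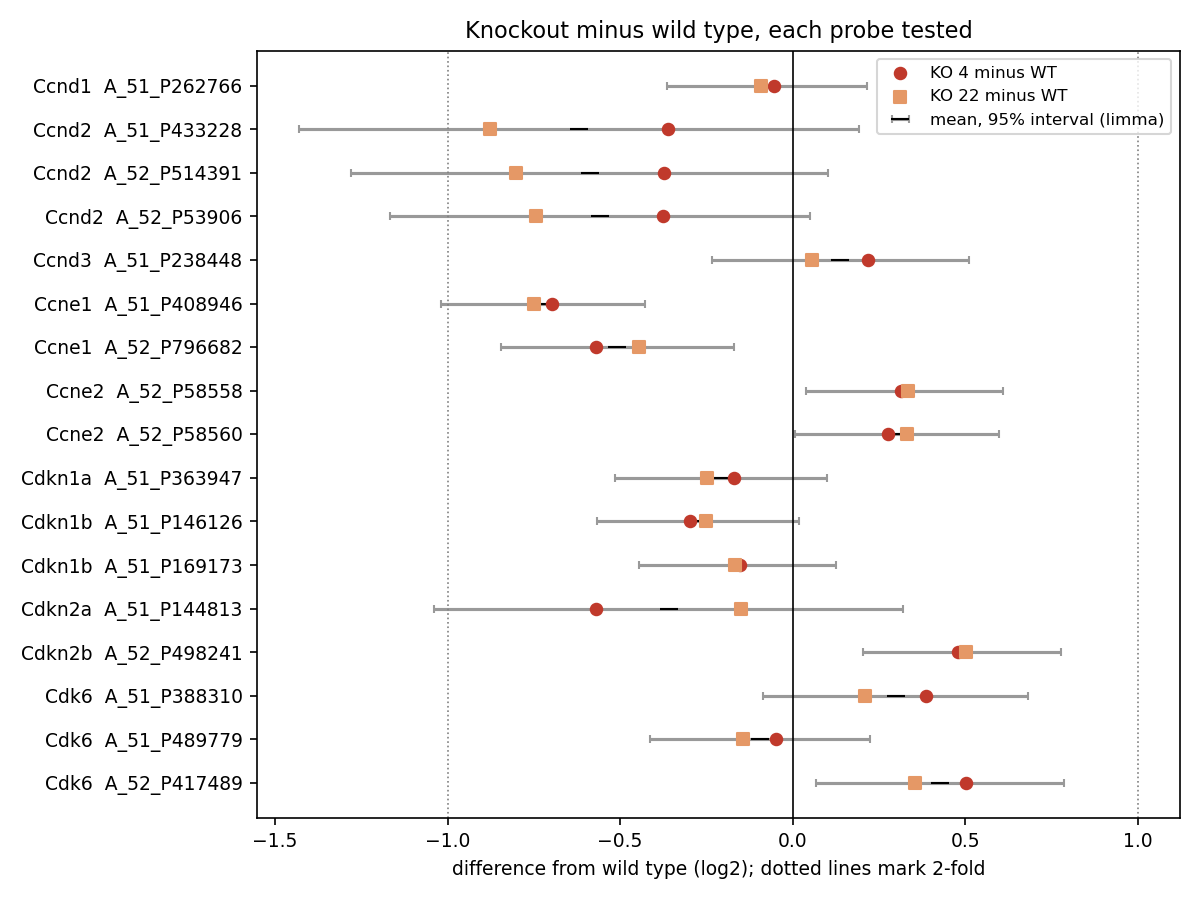
Difference from wild type on the log2 scale for KO 4 (circles) and KO 22 (squares) for each of the 17 member probes tested, with the limma mean and its 95% interval in grey; dotted lines mark 2-fold. The 3 Ccnd2 probes show KO 22 to the left of KO 4, the Ccne1 probes reach -0.72, and Cdkn2b stands at 0.49 with both knockout arrays close together.

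By their tested probes the CIP/KIP inhibitors lay slightly below wild type, with no probe past the threshold. Cdkn1a, a p53 target that halts the cycle after DNA damage, was read by A_51_P363947 in 10 spots (chromosome 17, 27293819 to 27293878, mm7), of which 1 spot of KO 22 had an outlier flag and was left out. The mean relative intensity was 5.97 ± 0.12 on KO 4 and 6.72 ± 0.20 on WT (SD, n = 10 spots each), and 5.66 ± 0.14 on KO 22 (SD, n = 9 spots). The highest spot was 6.13 on KO 4 and 5.85 on KO 22, and the lowest on WT was 6.38, so the spots of the knockout arrays did not reach those of wild type. Spots of 1 array share an RNA sample and give the error of the reading only. Over arrays the difference was -0.21 ± 0.10, with an interval from -0.52 to 0.10 (limma adjusted p = 0.279).

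Cdkn1b, the inhibitor that accumulates as cells leave the cycle, has 3 probes on chromosome 6. A_51_P146126 (134939519 to 134939578, mm7) had relative intensities of 0.675, 0.697 and 0.829 on KO 4, KO 22 and WT, a difference of -0.27 ± 0.10 (limma adjusted p = 0.195). A_51_P169173 (134935407 to 134935465) averaged 0.0739 ± 0.0030, 0.0733 ± 0.0054 and 0.0824 ± 0.0070 (SD, n = 10 spots of each array), with ranges that overlapped. Its difference was -0.16 ± 0.09 (limma adjusted p = 0.349), which shrank to -0.063 with normexp background correction. The remaining probe, A_52_P673863 (134937910 to 134937969), had 0.0093, 0.0123 and 0.0094 on KO 4, KO 22 and WT. It was not well above background on any array and was not tested.

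The INK4 inhibitors Cdkn2a and Cdkn2b are neighbours in the genome, and their mean differences lay on opposite sides of wild type, neither of them past the threshold. Cdkn2b was higher on both knockout arrays, where KO 4 had a relative intensity of 0.969, KO 22 had 0.984 and WT had 0.695. The knockout values nearly coincided, and the difference was 0.49 ± 0.09, or 1.40-fold (limma adjusted p = 0.113), with values from 0.39 to 0.62 over the alternatives. The file gives no position for its only probe, A_52_P498241.

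Cdkn2a was read by A_51_P144813 (chromosome 4, 88678367 to 88678426, mm7), for which the file lists both RefSeq transcripts of the gene. Its relative intensity averaged 0.123 ± 0.0037 on KO 4 and 0.165 ± 0.0080 on KO 22 (SD, n = 10 spots each), and 0.183 ± 0.010 on WT (SD, n = 9 spots, with 1 outlier spot left out). The spots of KO 4, up to 0.128, lay below all those of KO 22, from 0.152 to 0.177, which overlapped those of wild type, from 0.168 to 0.198. KO 4 was thus the low array, at -0.57 from wild type against -0.15 for KO 22. The difference over arrays was -0.36 ± 0.22, with an interval from -1.04 to 0.32 (limma adjusted p = 0.37). The knockout arrays differed from each other by -0.42, about as far as their mean lay from wild type.

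**Figure D3:**
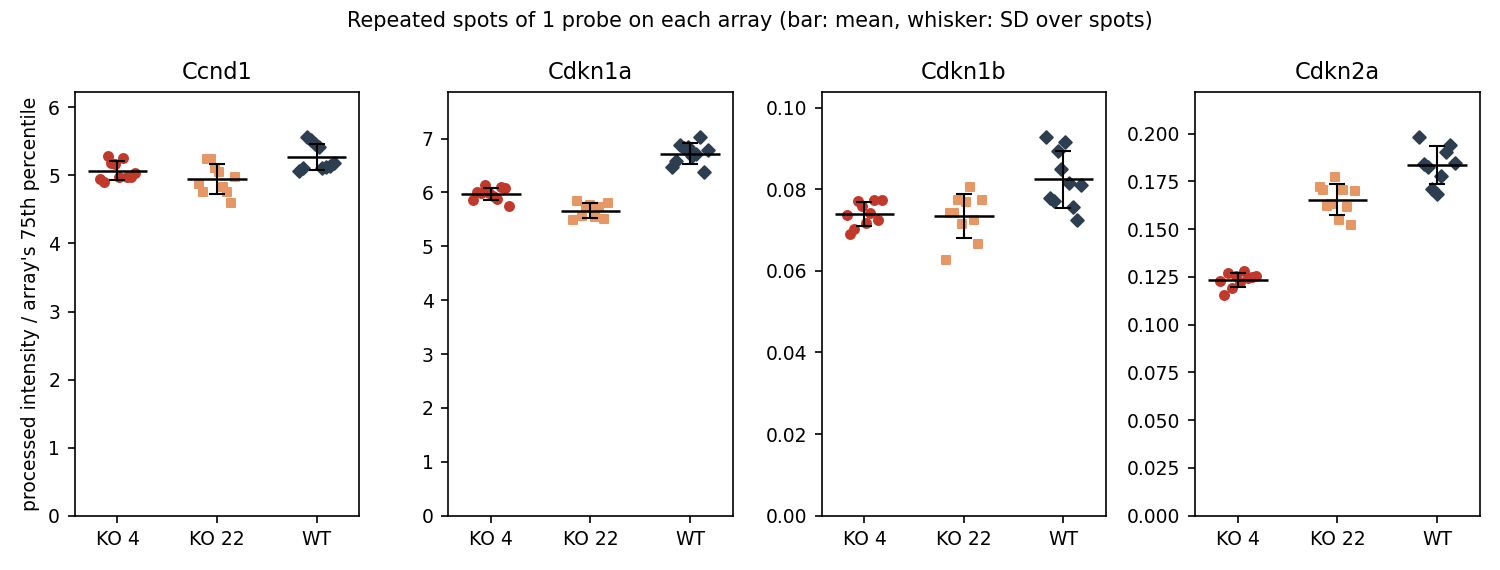
Relative intensity of every repeated spot (y axis, from 0) of the probes of Ccnd1, Cdkn1a, Cdkn1b (A_51_P169173) and Cdkn2a on KO 4, KO 22 and wild type, with the mean as a bar and the SD over 9 or 10 spots as whiskers. For Cdkn2a the KO 4 spots lie below all others, for Cdkn1a the wild type spots lie above all others, and for Ccnd1 and Cdkn1b the arrays overlap.

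With an intensity trend in the variance model, limma called 2 member probes higher and 4 lower, against 9.35% and 10.5% of all probes. Those higher were Cdkn2b and A_52_P417489 of Cdk6. Those lower were both probes of Ccne1 and 2 of the 3 of Ccnd2. Without KO 4 the difference of A_51_P433228 of Ccnd2 was -0.88 and without KO 22 it was -0.36, and that of Cdkn2a was -0.15 and -0.57, each with 1 array against 1 and no test.

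Of other cell cycle genes and their regulators, 139 of 140 genes on 9 lists were tested, each by its brightest probe, and limma called 0 of them, against calls of 0.0452% (higher) and 0.356% (lower) over all 17709 genes. At an unadjusted p below 0.05 limma had 12 higher and 24 lower, against 13.3% and 14.9% of all genes. The intensity trend called 12 higher and 28 lower, against 9.49% and 12.3%. No listed gene was 2-fold from wild type on both knockout arrays, against 1.45% of all genes higher and 1.56% lower. Both knockout arrays were lower for 81 of the 139 and higher for 41, against 45.5% and 38.0% of all genes. With no scaling the balance turned, to 50 lower and 64 higher, against 26.6% and 51.1%. In the series matrix values 67 were lower and 50 higher, against 43.0% and 40.1%. The counts were 69 and 48 with normexp, against 43.6% and 39.2%. Quantile normalization gave 72 and 47, against 43.8% and 39.6%, and scaling to the median 84 and 40, against 47.1% and 36.6%.

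Partners and further inhibitors came first. Among 9 such genes, both knockout arrays lay below wild type for 6 and above it for 3, or for 4 each with no scaling. With quantile normalization both lay below it for 4 and above it for 3. Cdkn2c (p18), another INK4 inhibitor, had relative intensities of 0.256 on KO 4, 0.287 on KO 22 and 0.177 on WT, a difference of 0.62 ± 0.12 (limma adjusted p = 0.114). Cdk4, the other kinase of the D-type cyclins, had 14.6, 14.5 and 17.8, a difference of -0.29 ± 0.09 (limma adjusted p = 0.176). The INK4 inhibitor Cdkn2d (p19) and the phosphatase gene Cdkn3 stood at -0.30 ± 0.12 and -0.29 ± 0.10 (limma adjusted p = 0.236 and 0.192). Cdkn2b and Cdkn2c lay above wild type and Cdkn2a and Cdkn2d below it on both knockout arrays. None of these INK4 genes passed the threshold, and Cdkn2a was only at -0.15 on KO 22.

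The retinoblastoma and E2F families were lower on both arrays for 8 of 13 genes and higher for 1, or 6 and 5 with no scaling. E2f1, E2f2 and E2f3, which activate S phase genes, stood at -0.49 ± 0.09, -0.52 ± 0.13 and -0.31 ± 0.10, and E2f8, a repressor of the family, at -0.42 ± 0.15 (limma adjusted p from 0.113 to 0.193). The replication genes that E2F activates were lower on both arrays for 23 of 24, with a median of -0.24 on each knockout array, against -0.03 over all genes. With no scaling 15 were lower and 3 higher, with a median of -0.12 beside 0.10 over all genes. With quantile normalization 20 were lower and 2 higher, with a median of -0.20. With normexp and in the series matrix values 20 were lower and 3 higher, with medians of -0.20 and -0.17. The helicase gene Mcm2 stood at -0.49 ± 0.14, the polymerase gene Pola1 at -0.46 ± 0.10, and Mcm10 and Gins2 at -0.38 ± 0.11 and -0.36 ± 0.10 (limma adjusted p from 0.118 to 0.163). None of the 24 passed. Both knockout arrays lay below wild type for 10 of 16 mitosis genes and above it for 2, with a median of -0.10. With no scaling that median was 0.03, beside 0.10 over all genes. The counts of 10 and 2 became 8 and 5 with normexp, and 8 and 6 in the series matrix values. Topoisomerase gene Top2a stood at -0.45 ± 0.09, the kinetochore motor gene Cenpe at -0.35 ± 0.09, the kinase gene Aurka at -0.33 ± 0.10 and the transcription factor gene Mybl2 at -0.33 ± 0.10 (limma adjusted p from 0.119 to 0.173).

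**Figure D4:**
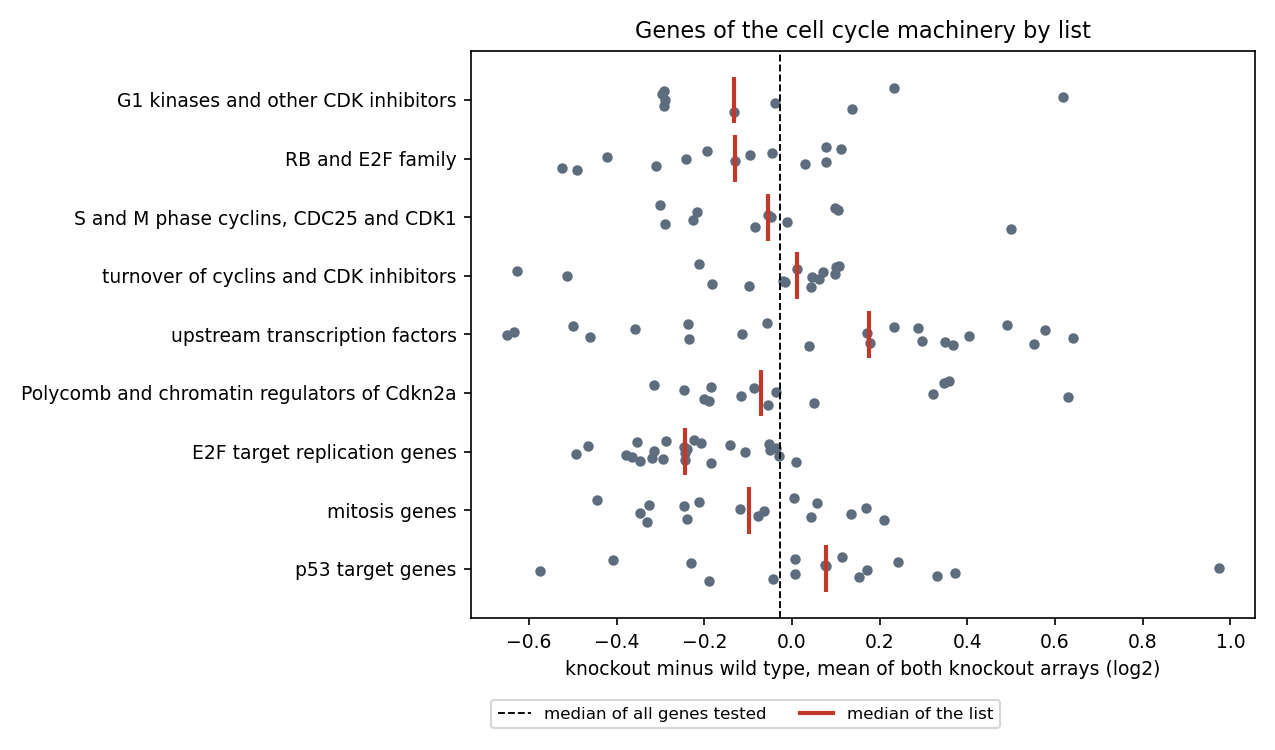
Difference from wild type on the log2 scale, mean of both knockout arrays (x axis), for each tested gene of 9 lists (points), with the median of each list in red and that of all genes as a dashed line. The replication genes lie almost all left of the dashed line, with a median of -0.24, and the upstream transcription factors spread to both sides.

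The S and M phase cyclins with Cdk1, Cdc25 and Wee1 had 6 of 11 tested genes lower on both arrays and 3 higher, with a median of -0.05. With no scaling that median was 0.07, beside 0.10 over all genes. With normexp and in the series matrix values 4 were lower and 4 higher. Ccnb1, the mitotic cyclin B1, stood at -0.29 ± 0.10, the kinase gene Wee1 at -0.30 ± 0.09, Ccnf at -0.23 ± 0.11 and the germ cell cyclin gene Ccna1 at 0.50 ± 0.15. Of 15 genes for the turnover of cyclins and inhibitors 6 were lower and 7 higher, or 3 and 10 with no scaling. The lowest were Fzr1 (Cdh1, an activator of the anaphase-promoting complex) at -0.63 ± 0.10 and Fbxo31, an F-box gene, at -0.51 ± 0.10, followed by Usp28 at -0.21 ± 0.10 and Cks1b at -0.18 ± 0.11.

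Upstream regulators spread widely. Among 22 genes of transcription factors and their regulators 13 were higher on both arrays and 9 lower, with a median of 0.18, while the median was 0.09 on each knockout array taken alone. Mdm2 is counted here and again among the p53 target genes below. Id2, an inhibitor of basic helix-loop-helix factors, stood at 0.64 ± 0.10 and Myc, a driver of cell growth, at 0.58 ± 0.20. Mxd1, which opposes Myc, stood at -0.63 ± 0.10 and the Wnt effector gene Lef1 at -0.65 ± 0.15 (limma adjusted p from 0.098 to 0.195 for the 4). Polycomb, chromatin and other genes linked to Cdkn2a were lower on both arrays for 9 of 14 and higher for 5, with a median of -0.07. With no scaling that median was 0.05, beside 0.10 over all genes. With normexp and in the series matrix values 6 were lower and 6 higher. The Polycomb subunit genes Suz12, Rnf2 and Eed stood at 0.36 ± 0.10, 0.35 ± 0.10 and 0.32 ± 0.09, and Cdkn2aip, whose product binds p19Arf, at 0.63 ± 0.16. On the lower side the values of this list reached -0.32. Of 16 p53 target genes 8 were higher on both arrays and 4 lower. Perp, a desmosome gene, stood at 0.97 ± 0.13 (limma adjusted p = 0.094), Gdf15 at -0.57 ± 0.10, Sesn2 at -0.41 ± 0.09 and Fas at 0.37 ± 0.35. The mean of Fas (limma adjusted p = 0.532) came from KO 4, at 0.72, while KO 22 stood at 0.022. Cdkn1a, another target of p53, was given above.

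Markers of other cell types also varied between the arrays. Over all genes tested, both knockout arrays lay above wild type for 38.0% and below it for 45.5%. Sums of relative intensity over a list are set mostly by its brightest probes, so each is given with and without the brightest marker. Of 16 feeder fibroblast markers, all measured, both knockout arrays lay above wild type for 5 and below it for 3, and 12 were highest on KO 4, 1 on KO 22 and 3 on WT. They summed to 55.8 for KO 4, 41.8 for KO 22 and 33.2 for WT, and without Tagln to 28.48, 23.14 and 25.04. The collagen gene Col1a1 had 1.07, 0.619 and 0.511, and the receptor gene Pdgfra, read by a dim probe, 0.022, 0.0157 and 0.0335. Pdgfra is also counted among the primitive endoderm markers below, and Eomes among both the trophoblast and the mesendoderm markers. For trophoblast markers both knockout arrays lay above wild type for 10 of 11 and below it for 1, with sums of 231, 203 and 129, or 99.7, 84.1 and 63.3 without Krt18. The count of 10 includes Prl3d1, which stood only 0.004 above wild type on KO 4 and 0.12 on KO 22. Of 10 primitive endoderm markers 9 were lower and 1 higher, with sums of 2.67, 2.70 and 4.54, or 1.29, 1.25 and 3.46 without Amn. Of 7 mesendoderm markers 5 were higher and 2 lower, with sums of 1.96, 1.46 and 0.681, or 1.1, 0.852 and 0.422 without Fgf8. The ES cell markers summed to 803, 925 and 875, and without Dppa5a to 335, 332 and 336. The part of these markers in the values of the cyclins and inhibitors was not tested.

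Among 13277 other named genes well above background on all 3 arrays, those with the most similar profile were found by Euclidean distance over the 3 centred log2 values. Nearest to Ccne1 were Smarca1, Mdh1b and Tex101, at distances of 0.0071 to 0.0080. Wdpcp, Lrrc3 and Caln1 were nearest to Ccnd2 (0.0096 to 0.063), and Mettl26, Gtpbp10 and Naaa to Cdkn2b (0.0039 to 0.0062). Each profile has 3 points, and nearness says nothing of shared control.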

How the data were processed

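RNA of 2 Tet1 knockout samples and 1 wild type sample was measured on 1-colour arrays. The scanner output the authors deposited gives the intensity of each spot from Agilent Feature Extraction 10.1.1.1, with spatial and multiplicative detrending on within each array, and surrogates for dim spots, per the file headers. All 3 arrays lie on 1 slide. The deposited series matrix holds log2 values, with a median of 5.66 in each column over non-control spots and correlations of 0.991 to 0.993 with the log2 mean intensity. Its background correction stays unknown, and the submitters' processing notes name limma.

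Log2 processed intensity was scaled to the 75th percentile of each of the 3 arrays, outlier spots were left out and repeated spots averaged. Of 41174 probes, 79.5% matched a gene of the reference table (GRCm38.p6). A probe was tested if at least 50% of its spots were well above background on 1 or more arrays, which left 26526. Limma 3.58.1 in R 4.3.3 compared the groups with Benjamini-Hochberg adjustment. The fit has 1 residual degree of freedom, 3.25 after moderation, and assumes that the lone wild type array varies like the knockouts; moderation draws each SD toward 0.09. List genes use their brightest probe. Named list genes are the 4 largest differences per list among genes above background on the 3 arrays whose knockout values lie on 1 side of wild type. Only the limma fit was run on simulated probe values, with the same spread on all 3 arrays. The scaling, filter and averaging steps were not tested in that way. Member spots had a local background of 15 to 23 on the 3 arrays. The members, the lists and the tests were chosen with earlier results of these data known. The number of arrays limits the precision.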

Additional observations from a re-analysis of the deposited data

How the results depend on the processing

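Over 13 alternatives, 3 values of member probes changed sign: Ccnd1 stood at 0.052 and A_51_P489779 of Cdk6 at 0.031 with no scaling, and Cdk6 as the mean of its probes at 0.21. No scaling moved the median of all probes by 0.13. Calls over all probes, higher and lower, were 1164 and 452 with no scaling, 2293 and 2491 with normexp, 2445 and 2590 with normexp without the 8 spots below their local background, 1067 and 748 with all 3 arrays above background, 2480 and 2793 with an intensity trend, and 1058 and 938 in the series matrix values. Without a filter limma called 0 and 0, with 8702 probes at an unadjusted p below 0.05. The calls are out of 26526 probes, or 26523 without those spots, 24557 with all 3 arrays above background and 41135 without a filter. Calls higher were 31 with scaling to the median, and 6 with 1 probe per gene or the mean of the probes. Of the 17 member probes, those called higher and lower were 2 and 5 with normexp, 2 and 6 without those spots and 2 and 4 with the trend. With all 3 arrays above background 1 was lower (Ccne1), and 1 was lower in the series matrix values. Shares of all probes were 9.35% and 10.5% with the trend, and 4.34% and 3.05% with all 3 arrays above background. Of the 139 list genes, 15 were called higher and 22 lower with normexp, where 2293 and 2491 of 26526 probes were called. The counts were 14 and 17 without those spots, where 2445 and 2590 of 26523 probes were called, and 12 and 28 with the trend. They were 2 and 2 with all 3 arrays above background, 3 and 3 in the series matrix values, and 1 higher with no scaling. The trend called 9.49% and 12.3% of all genes. Shares of all genes were not counted in the other settings named, so the list counts there are not a result about these genes. Leaving out a knockout array gives 1 array against 1, a value with no test, so counts of calls could not be run there; the member values then ranged from -0.88 to 0.50. Of the other tested values of member probes under these settings, 147 kept direction and side of the threshold and 23 newly passed. The filters, the trend and 1 probe per gene leave each difference as it was, so only the side of the threshold could change there. The 34 values with an array left out kept their direction, which only restates that both knockout arrays lay on the same side of wild type. The dim Cdk6 probe A_51_P388310 shrank from 0.30 to 0.024 with normexp and to 0.033 without those spots. The adjusted p of Tet1 missed the threshold with quantile normalization (0.0539), no filter (0.176), 1 probe per gene (0.0529) and the mean of probes (0.0539). No paired analysis was possible because the groups share no replicate number. The cause of each change in the counts was not tested.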
